A study of Mus musculus with 17 samples.

Results

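Heat shock proteins and their co-chaperones were followed in RNA from the apex of the left ventricle of mice after pressure overload. Members were all protein-coding genes whose symbol named an HSP, a DNAJA, DNAJB or DNAJC protein, a BAG protein 1 to 6 or a heat shock factor 1 to 5, with the basement membrane proteoglycan Hspg2 left out. There were 83 such genes among the 21798 genes of the table, and 75 of them reached 0.5 CPM (reads of a gene scaled to the same total in each library) in at least 3 libraries and were tested among 16218 genes. The 8 members below that level were Dnajb3, Dnajb7, Dnajb13, Dnajc6, Dnajc22, Hsf3, Hsf5 and Hspb9. Male C57Bl6/J mice of 7 to 8 weeks had transverse aortic constriction (TAC), which loads the left ventricle with pressure, or sham surgery. From week 1 they were given 6 oral gavages of 29P, an orally available prodrug of an RGD-mimetic that binds αvβ3 integrin, at 50 μg/kg, or of the same volume of saline (Veh), and they were killed at week 3. There were 17 libraries, each from 1 mouse (Sham Veh 5, Sham 29P 3, TAC Veh 3, TAC 29P 6), and they are named here by the S numbers in their labels.

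Heat shock proteins are chaperones, which hold or refold proteins that have lost or not yet reached their shape. HSP70 proteins work in cycles that DNAJ (HSP40) proteins start by handing over a substrate and that BAG and HSP110 proteins end by releasing the nucleotide, while HSP90 finishes the folding of kinases and receptors, HSP60 with HSP10 folds proteins inside mitochondria, and small HSPs hold unfolded proteins without using ATP. Under heat or protein damage, heat shock factor 1 binds repeats of GAA and TTC in the promoters of inducible members, and the chaperones of the endoplasmic reticulum answer instead to a different element in theirs. Cardiomyocytes are known to be rich in small HSPs, several of which sit on the Z-disc and myofilaments.

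The sequences before the start sites of the members that the results below turn on are shown first, so that stress-inducible members (Hspa1a, Hspa1b, Hsph1), chaperones that were lower in Veh mice after a rescaling described below (Hspe1, Hspa5) and members that rose (Hspb6, Hspb7) can be read side by side. Each line gives the 250 bases before the start site listed in RefSeq for GRCm38.p6, 5′ to 3′ on the strand of the gene, with matches in capitals to GAANNTTC or TTCNNGAA in Hspa1a, Hspa1b, Hsph1 and Hspe1, and to CCAAT followed after 9 free bases by CCACG, the element of endoplasmic reticulum chaperones, in Hspa5. The stretches are chr17:34972157-34972406 (minus strand) for Hspa1a, chr17:34959239-34959488 (minus) for Hspa1b, chr5:149636337-149636586 (minus) for Hsph1, chr1:55087898-55088147 (plus) for Hspe1, chr2:34771840-34772089 (plus) for Hspa5, chr7:30552290-30552539 (plus) for Hspb6 and chr4:141420529-141420778 (plus) for Hspb7.
Hspa1a: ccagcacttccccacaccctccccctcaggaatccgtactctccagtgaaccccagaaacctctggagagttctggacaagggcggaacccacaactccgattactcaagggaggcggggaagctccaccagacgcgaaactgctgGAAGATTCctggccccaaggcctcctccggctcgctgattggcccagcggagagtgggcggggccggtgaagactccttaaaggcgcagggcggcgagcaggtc
Hspa1b: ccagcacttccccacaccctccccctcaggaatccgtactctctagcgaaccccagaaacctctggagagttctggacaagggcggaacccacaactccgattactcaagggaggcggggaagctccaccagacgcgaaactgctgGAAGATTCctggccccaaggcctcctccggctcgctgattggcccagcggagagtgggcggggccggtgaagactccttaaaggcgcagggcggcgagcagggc
Hsph1: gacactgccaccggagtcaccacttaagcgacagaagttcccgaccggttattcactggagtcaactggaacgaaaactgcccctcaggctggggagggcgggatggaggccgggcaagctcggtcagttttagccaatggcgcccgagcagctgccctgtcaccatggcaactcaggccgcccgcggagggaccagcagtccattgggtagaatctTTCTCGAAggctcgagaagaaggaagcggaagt
Hspe1: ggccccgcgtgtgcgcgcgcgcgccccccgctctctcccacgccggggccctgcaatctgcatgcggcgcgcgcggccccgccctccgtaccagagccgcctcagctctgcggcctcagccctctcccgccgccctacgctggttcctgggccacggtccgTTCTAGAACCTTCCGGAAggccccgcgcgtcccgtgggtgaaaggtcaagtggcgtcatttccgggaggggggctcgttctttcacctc
Hspa5: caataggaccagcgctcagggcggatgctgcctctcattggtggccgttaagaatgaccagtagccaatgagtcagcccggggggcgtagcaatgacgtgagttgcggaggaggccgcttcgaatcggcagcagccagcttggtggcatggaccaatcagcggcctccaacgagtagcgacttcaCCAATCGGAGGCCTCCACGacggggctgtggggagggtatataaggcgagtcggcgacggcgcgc
Hspb6: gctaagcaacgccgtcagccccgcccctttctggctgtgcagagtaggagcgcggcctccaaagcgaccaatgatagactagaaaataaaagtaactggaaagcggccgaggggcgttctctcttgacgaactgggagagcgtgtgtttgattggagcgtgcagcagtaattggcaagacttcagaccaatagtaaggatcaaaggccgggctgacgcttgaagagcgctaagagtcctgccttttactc
Hspb7: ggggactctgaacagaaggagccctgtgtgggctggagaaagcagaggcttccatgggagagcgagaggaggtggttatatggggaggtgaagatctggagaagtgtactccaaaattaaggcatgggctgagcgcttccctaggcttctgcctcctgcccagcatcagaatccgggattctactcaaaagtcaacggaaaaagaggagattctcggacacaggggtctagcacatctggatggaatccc

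The stretches of Hspa1a and Hspa1b were identical at 247 of 250 positions. In both, GAAGATTC began 104 bases before the start site. The stretch of Hspe1 lies within the annotated Hspd1 gene, which is read from the opposite strand and overlaps Hspe1, and it held 3 of these 8-base matches, each overlapping the next, as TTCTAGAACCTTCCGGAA. No match was found in the printed stretches of Hspb6 and Hspb7, but the window of a second start site listed for Hspb6, at chr7:30553051-30553350, held GAAGTTTC. Over windows of 300 bases, 250 before and 50 after the start site, GAANNTTC or TTCNNGAA stood in 15.1% of 32851 promoters and in 19 of 84 windows of 66 members with an entry. The longer form with 3 units in a row, in which a further GAA or TTC follows after another 2 bases, stood in 0.603% of all promoters and in the windows of 4 members, Dnajb6, Hspd1, Hspe1 and Hsph1. The 19-base element with CCAAT and CCACG stood in 0.119% of all promoters and in 3 members, Dnajc3, Hsp90b1 and Hspa5. Both strands were searched, the longer form contains the shorter one, and a match is a description of the letters only.

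Estimated depth was 14.2 to 23.8 M reads per library (median 20.4), with S14 of the Sham 29P group the shallowest. Mitochondrially encoded transcripts took 29.1 to 40.0% of CPM in the 8 Sham libraries and 23.6 to 29.4% in the 9 TAC libraries. The median log2 fold change of all tested genes was 0.33 in Veh and 0.36 in 29P mice. Rescaling by the trimmed mean of M values (TMM), which sets the bulk of genes level, moved these medians to 0.00 and 0.02, and each change is given on both scales. Of 4 transcripts of pressure overload (Nppa, Nppb, Myh7 and Acta1) 3 were called higher in Veh mice on both scales, with a median log2 fold change of 2.90. The largest changes were 4.08 for Myh7, the fetal myosin heavy chain, and 3.72 for Acta1, skeletal actin. The sum of all 4 was 521 to 4779 CPM in Sham and 3921 to 14436 in TAC libraries, so the ranges overlapped. Markers of ventricular cardiomyocytes summed to 32029 to 49220 CPM in every library. Atrial markers reached 1529 CPM in S18 (TAC 29P), 2543 CPM in S19 and 2032 CPM in S20 (both Sham Veh) and at most 5.75 CPM in the other libraries.

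All 83 members together made up 0.759 to 1.35% of CPM in a library. Per kilobase of exon, the order of the mean level over the 17 libraries was Hspb7 (502 CPM per kb), Hsp90ab1 (411), Hspb6 (262), Hspb8 (227), Hspa8 (189), Hspa9 (147), Hspa5 (131), Bag1 (125), Hsp90b1 (112) and Hspd1 (100.1). The 3 small HSPs at the top hold or cap muscle proteins, Hsp90ab1 and Hspa8 are the constitutive HSP90 and HSP70 of the cytosol, Hspa9 and Hspd1 work in mitochondria, and Hspa5 and Hsp90b1 in the endoplasmic reticulum. In contrast, the stress-inducible Hspa1a averaged 6.04 CPM per kb, and most of that came from 1 library.

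**Figure D1:**
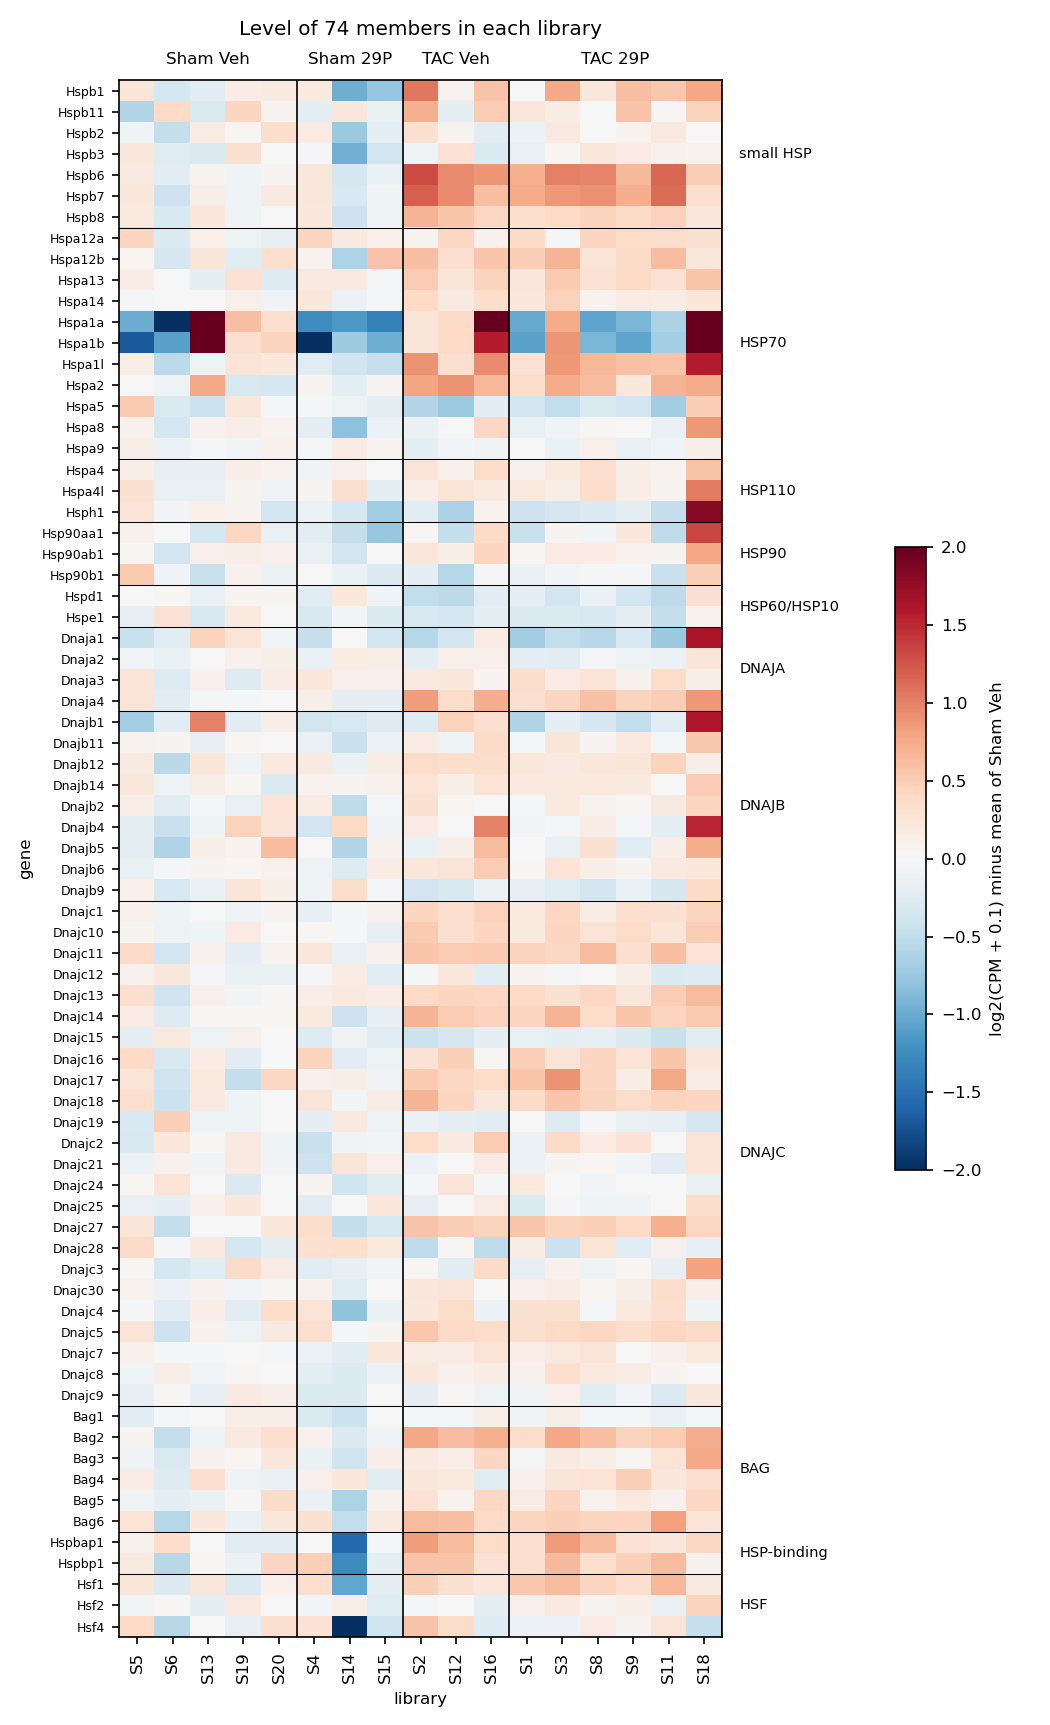
Level of 74 tested members (rows, by family) in each library (columns, by group), drawn as log2(CPM + 0.1) minus the mean of the Sham Veh libraries, with the colour limited to 2 units each way. The rows of Hspb6, Hspb7 and Hspb8 are above 0 in every TAC library, and the S18 column stands out in the HSP70, HSP110, DNAJA, DNAJB and HSP90 rows.

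The comparison of TAC Veh with Sham Veh asked what pressure overload changed without the drug. The paper states that a TAC Veh library was left out because it clustered with Sham mice. Of the 75 tested members 18 (24.0%) rose and 1 fell on the CPM scale, against 23.6% of all genes higher and 1.98% lower, so the members' share was near that of all genes. The ranges of the groups did not overlap in 22 members (29.3%, against 29.8% of all genes). The members' median log2 fold change was 0.22, below the 0.33 of all genes. After TMM scaling 2 members, Hspb6 and Hspb7, were higher (2.67% against 4.26% of all genes) and 8 were lower (10.7% against 5.95%). In this group of 3, library S2 carried many calls. Without it 2 members were higher, again Hspb6 and Hspb7, while the share of all genes called higher fell to 2.87%. A further number in the labels, ahead of the S number, falls into 4 runs of libraries, and what they mark is not stated. The runs are S1 to S11, S12 to S14, S15 with S16, and S18 to S20. The first held 5 TAC 29P libraries but 1 Sham 29P library, and the last held 1 TAC 29P and 0 Sham 29P libraries. Run and group are therefore partly confounded. The libraries with atrial transcripts make up the last run. With a covariate for the run 13 members were higher (against 20.5% of all genes) and 0 lower, Dnajc15 being at an adjusted p of 0.068.

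In 29P mice, TAC 29P against Sham 29P gave a similar picture. On the CPM scale 20 members (26.7%) rose and 0 fell, against 31.5% and 1.15% of all genes, and the members' median was 0.28 against 0.36. The ranges did not overlap in 21 members (28.0%, against 26.1%). After TMM scaling 4 members were higher, Hspb1, Hspb6, Hspb7 and Hspa1l (5.33% against 6.07% of all genes), and 5 were lower (6.67% against 5.15%). Hspb6 and Hspb7 were thus higher in both TAC comparisons on both scales, as were 2.41% of all genes, and 0 members were lower in both on both scales (0.629% of genes). The shallowest library, S14, set many calls here. Without it 7 members were higher (Bag2, Dnaja4, Dnajc10, Dnajc14, Hspa1l, Hspb6 and Hspb7) against 6.25% of all genes. With the run covariate 2 members were higher, Hspb6 (adjusted p = 0.026) and Hspa1l (adjusted p = 0.027), against 5.06% of all genes.

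**Figure D2:**
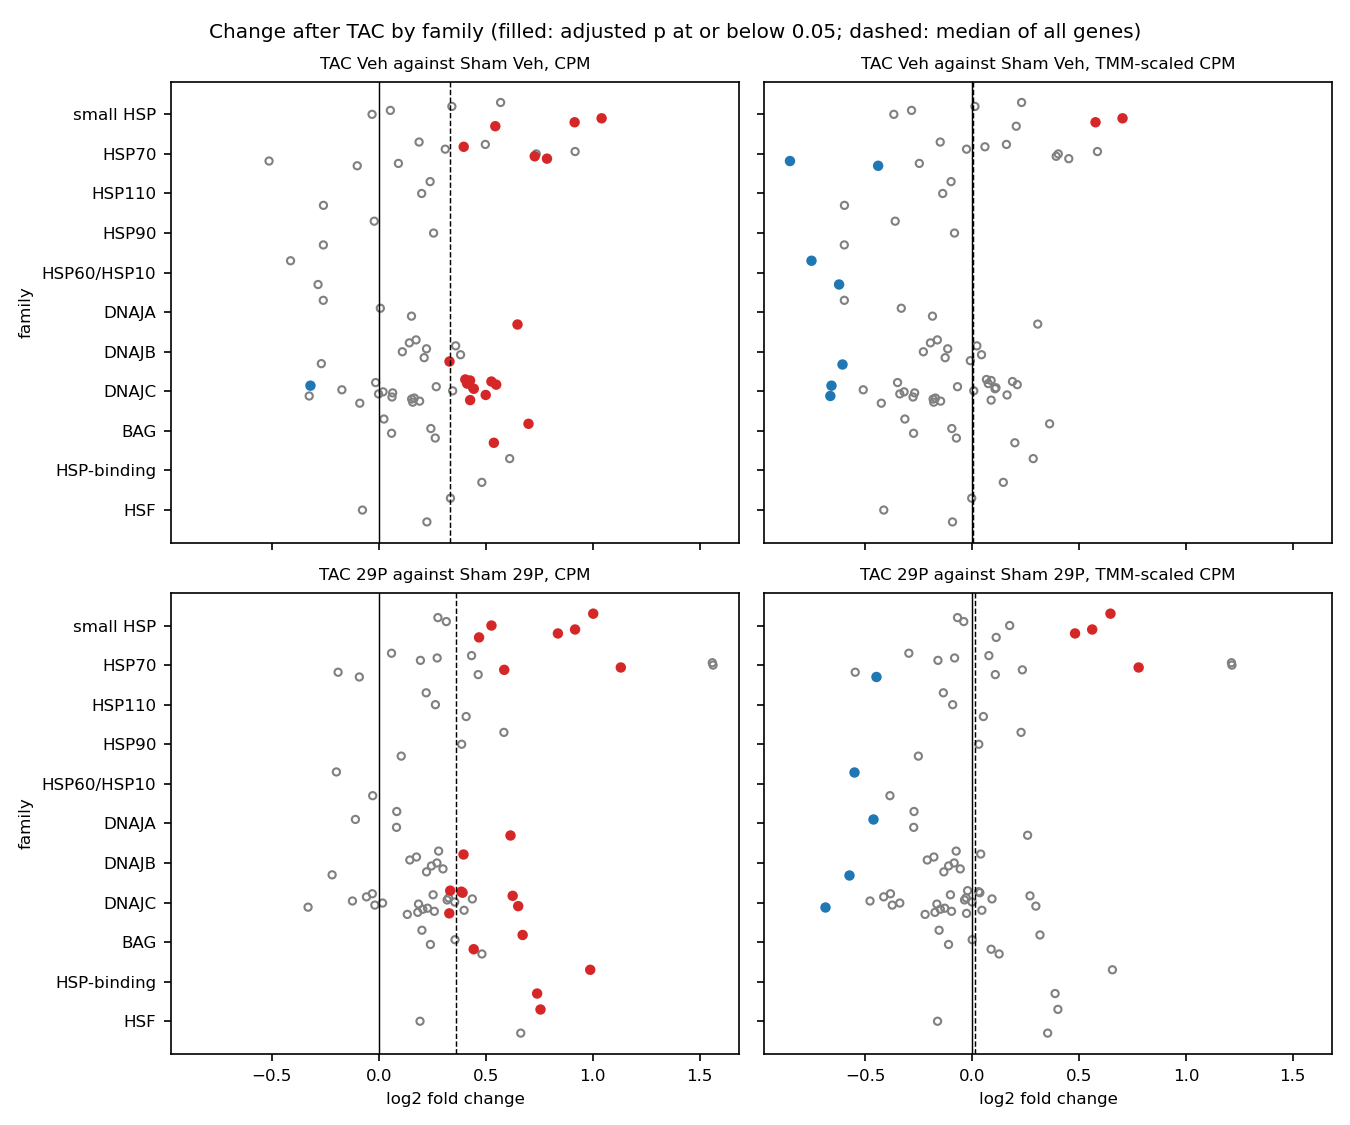
Log2 fold change after TAC of 74 tested members (points) by family in Veh and in 29P mice, on the CPM and the TMM scale, with called members filled and the median of all genes as a dashed line. On the TMM scale the filled points above 0 are small HSPs and, in 29P mice, Hspa1l, and the HSP60/HSP10 points (Hspd1 and Hspe1) lie below 0.

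Hspb6 (HSP20), a small HSP phosphorylated by protein kinase A in muscle, rose in both TAC comparisons on both scales. Its gene lies on chr7:30552178-30555443 in mm10, where Lin37 and Proser3 overlap it on the opposite strand. It was measured at 466, 355, 424, 388 and 425 CPM in Sham Veh, at 482, 326 and 369 in Sham 29P, and at 1009, 790 and 753 in TAC Veh. The 6 TAC 29P libraries ran from 576 to 913 with a median of 742. Every TAC library lay above every Sham library. The mean ± SD was 412 ± 41.9 (n = 5) in Sham Veh and 851 ± 139 (n = 3) in TAC Veh, a log2 fold change of 1.04 (SE 0.16, limma adjusted p = 0.00082), or 0.70 after TMM scaling (adjusted p = 0.0029). In 29P mice the means were 392 ± 80.6 (n = 3) and 740 ± 129 (n = 6), a log2 fold change of 0.92 (SE 0.15, limma adjusted p = 0.0015), or 0.56 after TMM scaling (adjusted p = 0.012). Within the runs of libraries listed above TAC exceeded Sham by 0.50 to 1.09 on the log2 scale, least in the run whose only TAC library was S18.

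Hspb7 (cvHSP), a small HSP of heart and skeletal muscle that binds filamin and actin, had the highest level per kilobase of all members. It lies on chr4:141420779-141425311. The Sham Veh libraries held 1128, 734, 1061, 919 and 1104 CPM, the Sham 29P libraries 1144, 789 and 925, and the TAC Veh libraries 2247, 1879 and 1482. In TAC 29P they ran from 1229 to 2117 with a median of 1713. No TAC library fell within the Sham range. Its log2 fold change was 0.92 in Veh mice (SE 0.18, limma adjusted p = 0.0037; 0.58 with adjusted p = 0.024 after TMM scaling) and 0.84 in 29P mice (adjusted p = 0.0042, and 0.48 with adjusted p = 0.046). With the run covariate, the adjusted p in 29P mice was 0.0576.

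Hspb8 (HSP22), which pairs with Bag3 to send damaged filament proteins to autophagy, rose from 379 ± 54.5 to 549 ± 50.4 CPM in Veh mice. Its log2 fold change of 0.54 (SE 0.13, limma adjusted p = 0.010) became 0.21 after TMM scaling (adjusted p = 0.20), so this call depended on the scale. In 29P mice it was 0.47 (adjusted p = 0.015) and 0.11 after TMM scaling, and all 9 TAC libraries again lay above all 8 Sham libraries. Hspb1 (HSP27), an actin-binding small HSP, was measured at 85.5, 37.8 and 43.5 CPM in Sham 29P and at 75.1 to 127 (median 111) in TAC 29P. It rose there by 1.002 on the log2 scale (SE 0.25, limma adjusted p = 0.0089; TMM 0.65, adjusted p = 0.047), although the groups overlapped. Without S14, the lowest of the Sham 29P libraries, the value was 0.77 with an adjusted p of 0.083. In Veh mice Hspb1 did not pass (0.57, adjusted p = 0.0998). Hspb3, a muscle partner of Hspb2, was higher in 29P mice on the CPM scale only (0.53, adjusted p = 0.044; TMM 0.18), and Hspb2, which overlaps the αB-crystallin gene Cryab, gave 0.05 and 0.32 with no call, and Hspb11 was not called either.

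**Figure D3:**
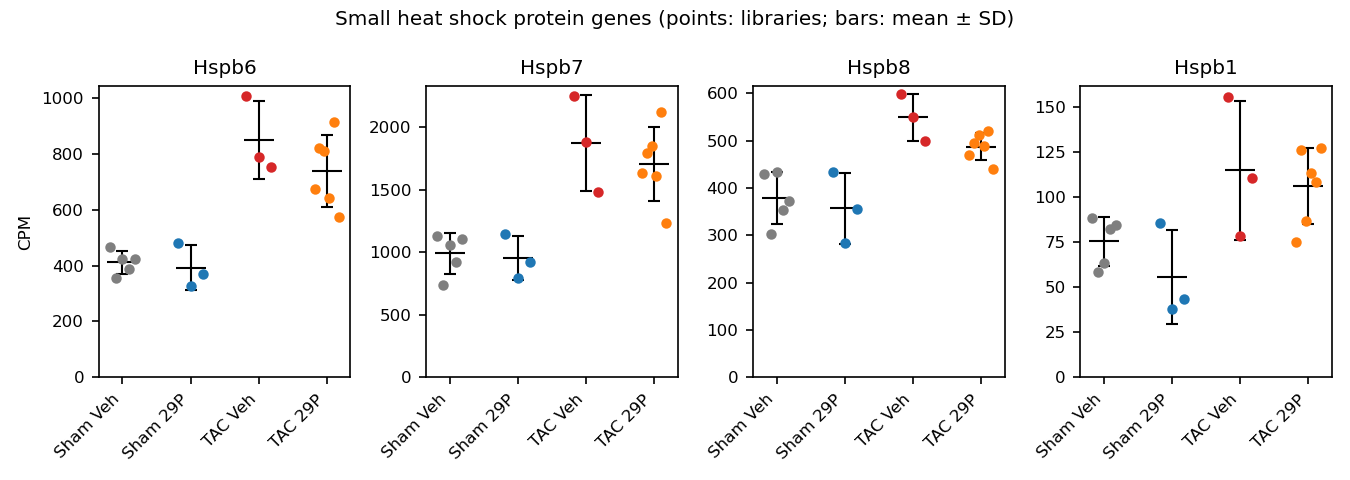
CPM of small HSPs in each library (points) by group, with bars at the group mean ± SD. For Hspb6 and Hspb7 the 9 TAC libraries sit above the 8 Sham libraries, while the Hspb1 groups overlap.

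In the HSP70 family, Hspa1l and Hspa2 rose in both comparisons on the CPM scale. Hspa1l is an HSP70 known best from the testis. Its libraries held 11.4, 7.22, 9.69, 12.7 and 12.1 CPM in Sham Veh, 8.82, 7.88 and 7.53 in Sham 29P and 19.6, 13.1 and 20.3 in TAC Veh, and 12.8 to 31.3 (median 16.2) in TAC 29P. All TAC values lay above all Sham values. The log2 fold change was 0.73 in Veh mice (SE 0.24, limma adjusted p = 0.035; TMM 0.39, adjusted p = 0.26) and 1.13 in 29P mice (SE 0.23, adjusted p = 0.0038; TMM 0.78, adjusted p = 0.026). Hspa1l lies on chr17:34972703-34979285, next to Hspa1a, and its coding sequence is 82.7% identical to that of Hspa1a. Hspa2, another HSP70 with a role in sperm, rose by 0.79 in Veh and 0.59 in 29P mice on the CPM scale, and by 0.45 and 0.24 with no call after TMM scaling. Hspa13, a microsomal HSP70, rose in Veh mice only on the CPM scale (0.40, adjusted p = 0.038; TMM 0.06).

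The abundant HSP70 members gave no call on the CPM scale. Hspa8, the constitutive cytosolic form, was measured at 808 ± 102 CPM (n = 5) in Sham Veh and 865 ± 176 (n = 3) in TAC Veh, a log2 fold change of 0.09 with a 95% interval from −0.35 to 0.54. Hspa5 (BiP, chr2:34771970-34777547), the HSP70 of the endoplasmic reticulum, was measured at 888, 506, 460, 723 and 612 CPM in Sham Veh and at 411, 376 and 529 in TAC Veh. The groups overlapped, and the log2 fold change was −0.51 (SE 0.22, limma adjusted p = 0.093) on the CPM scale and −0.85 (adjusted p = 0.023) after TMM scaling. In 29P mice it was −0.19 and −0.55 with no call on either scale. There Hspa5 stood at 869 CPM in S18 and at 384 to 509 in the other TAC 29P libraries. The Sham 29P libraries held 611, 579 and 548 CPM, above all TAC 29P libraries but S18. Hspa9 (mortalin), the mitochondrial HSP70, gave −0.10 in Veh and −0.09 in 29P mice on the CPM scale with no call, but −0.44 (adjusted p = 0.026) and −0.45 (adjusted p = 0.022) after TMM scaling. Hspa12a and Hspa12b, 2 distant relatives of HSP70, and the HSP110 proteins Hspa4, Hspa4l and Hsph1 were not called in any comparison on either scale.

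The mitochondrial chaperonin genes Hspd1 and Hspe1 had fold changes below 0. Hspd1 (HSP60, chr1:55077835-55088243) was measured at 292, 298, 261, 300.3 and 301 CPM in Sham Veh, at 251, 336 and 277 in Sham 29P and at 205, 203 and 249 in TAC Veh, and the 3 TAC Veh libraries lay below all 5 Sham Veh libraries. In TAC 29P it lay across the Sham range (median 237), at 359 in S18 and 202 to 265 in the other libraries. In Veh mice its log2 fold change was −0.41 on the CPM scale (SE 0.15, limma adjusted p = 0.0504) and −0.75 after TMM scaling (adjusted p = 0.013). In 29P mice it was −0.20 (adjusted p = 0.29) and −0.55 (adjusted p = 0.0486). Its partner Hspe1 (HSP10), which shares the printed stretch of promoter with it and overlaps it on the opposite strand, gave −0.28 in Veh mice (adjusted p = 0.13) and −0.62 after TMM scaling (adjusted p = 0.032). In 29P mice Hspe1 was measured at 49.6 ± 4.85 CPM (n = 3) in Sham and 48.8 ± 6.51 (n = 6) in TAC, a log2 fold change of −0.03 (adjusted p = 0.88) and −0.38 after TMM scaling (adjusted p = 0.15), with no call. For Hspe1 as well S18 was the highest TAC 29P library, at 60.5 CPM against 41.1 to 50.6 in the others. Neither gene was called on the CPM scale, and the share of mitochondrially encoded transcripts was lower in the same TAC libraries. Its part in these values was not tested.

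HSP90 members showed no call. Hsp90ab1, the constitutive cytosolic HSP90, was at 1149 ± 148 CPM in Sham Veh and 1367 ± 156 in TAC Veh (log2 fold change 0.26, 95% interval −0.08 to 0.59). In Veh mice Hsp90aa1, the inducible form, gave −0.02 (−0.67 to 0.62), and Hsp90b1 (GRP94) of the endoplasmic reticulum −0.26 (−0.67 to 0.15). In 29P mice the log2 fold changes of the 3 genes ran from 0.10 to 0.58 on the CPM scale (smallest limma adjusted p = 0.062).

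Among the BAG proteins, which release nucleotide from HSP70, Bag2 rose most. Bag2 inhibits the ubiquitin ligase CHIP. It was measured at 32.6, 22.4, 29.0, 35.7 and 39.7 CPM in Sham Veh, 33.1, 25.5 and 29.4 in Sham 29P, 53.7, 47.8 and 51.3 in TAC Veh, and 40.6 to 53.5 (median 45.9) in TAC 29P. The lowest TAC library was above the highest Sham library. Its log2 fold change was 0.70 in Veh mice (SE 0.15, limma adjusted p = 0.0063; TMM 0.36, adjusted p = 0.072) and 0.67 in 29P mice (SE 0.15, adjusted p = 0.0056; TMM 0.32, adjusted p = 0.094). Without S2 the adjusted p in Veh mice was 0.053. Bag6, which guards newly made membrane proteins, rose in Veh mice (0.54, adjusted p = 0.046; TMM 0.20) and Bag5 in 29P mice (0.44, adjusted p = 0.036; TMM 0.09), each on the CPM scale only. With 1 library of the groups compared left out at a time, Bag6 kept its call in 3 of 8 fits and Bag5 in 5 of 9. Bag3, the cardiac co-chaperone of Hspb8, was at 164 ± 20.6 CPM in Sham Veh and 193 ± 20.4 in TAC Veh (0.24, adjusted p = 0.25) and was not called in 29P mice either. Bag1, the most abundant BAG transcript per kilobase, gave 0.02 and 0.20 with no call.

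DNAJ proteins formed the largest group, with 4 DNAJA, 9 DNAJB and 24 DNAJC genes tested. In Veh mice 1 DNAJA, 1 DNAJB and 8 DNAJC genes rose on the CPM scale and 1 DNAJC gene fell. In 29P mice 1, 1 and 6 rose. These were 10 of 37 (27.0%) and 8 of 37 (21.6%), against 23.6% and 31.5% of all genes higher. None of these rises was called after TMM scaling. Dnaja4, a DNAJA protein of heart and other muscle, rose from 102 ± 12.4 to 160 ± 25.5 CPM in Veh mice (0.64, SE 0.14, limma adjusted p = 0.0050; TMM 0.31, adjusted p = 0.098) and by 0.61 in 29P mice (adjusted p = 0.0046). Dnajc14, which helps receptors leave the endoplasmic reticulum, rose by 0.55 and 0.63, Dnajc27, a Rab-like GTPase with a J domain, by 0.50 and 0.65, and Dnajc11 of the mitochondrial outer membrane by 0.53 and 0.39. Smaller rises in both comparisons were found for Dnajc10, a disulfide reductase of the endoplasmic reticulum (0.43 and 0.39), and Dnajc1 (0.40 and 0.33). Rises in Veh mice were also called for Dnajc18 (0.44), Dnajc5, the cysteine string protein (0.43), and Dnajc13 (0.41), and in 29P mice for Dnajb11, a BiP partner (0.40), and Dnajc8 (0.33). After TMM scaling the 29P values of Dnajc1 and Dnajc8 were slightly below 0 (−0.02 and −0.03). The 1 DNAJB gene that rose in Veh mice was Dnajb6, an HSP40 that suppresses aggregation (0.33, adjusted p = 0.035), named after its value was seen, and it was at −0.01 after TMM scaling. Dnajc15, which sits on the mitochondrial import motor, was the 1 member that fell on the CPM scale. It was measured at 57.2 to 74.4 CPM in Sham Veh and at 48.6, 51.6 and 56.7 in TAC Veh, without overlap (−0.32, SE 0.10, adjusted p = 0.033; TMM −0.66, adjusted p = 0.0084). Its call was lost without S2 (−0.27, adjusted p = 0.17), and in 29P mice it was not called. The members lower only after TMM scaling included Dnajb9 of the endoplasmic reticulum (−0.61 in Veh and −0.57 in 29P mice), Dnajc28 (−0.66 and −0.69) and, in 29P mice, Dnaja2 (−0.47), also named after their values were seen.

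Every TAC library lay above every Sham library in 10 of the 75 tested members (13.3%, against 9.52% of all genes), and the reverse held in 0 members (0.216% of genes). The 10 were Hspb6, Hspb7, Hspb8, Hspa1l, Bag2, Dnaja4, Dnajc1, Dnajc10, Dnajc14 and Dnajc27.

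Heat shock factors are the transcription factors of the family. Hsf1, the main stress sensor, was measured at 23.2, 16.1, 22.9, 16 and 21.1 CPM in Sham Veh, 24.8, 9.45 and 17.3 in Sham 29P and 27.3, 24.2 and 22.9 in TAC Veh, and at 22.2 to 31.1 in TAC 29P. It rose in 29P mice on the CPM scale (0.75, SE 0.22, limma adjusted p = 0.018; TMM 0.40, adjusted p = 0.13), where S14 was the lowest value, and without S14 the change was 0.38 (adjusted p = 0.18). Hsf2 and Hsf4 were not called. The HSP70 nucleotide exchange factor Hspbp1 (0.74, adjusted p = 0.045) and Hspbap1 (0.99, adjusted p = 0.018), which binds Hspb1, were also higher in 29P mice on the CPM scale only, and without S14 their adjusted p was 0.43 and 0.17.

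Markers of other cells also moved after TAC. All 6 fibroblast markers in 29P and 5 of 6 in Veh mice rose on the CPM scale, and their sum was 647 to 1151 CPM in Sham and 995.4 to 2115 in TAC libraries. All 4 macrophage markers rose in both comparisons (62.2 to 112 CPM in Sham, 127 to 189 in TAC), as did 2 of 4 endothelial markers in Veh and 4 of 4 in 29P mice. All 4 red blood cell markers rose in Veh mice on the CPM scale, from a sum of 1009 to 2438 CPM in Sham Veh to 3052 to 4933 in TAC Veh, and 0 were called after TMM scaling or in 29P mice. Of the 8 markers of ventricular cardiomyocytes, 1 rose and 1 fell in Veh mice and 2 rose in 29P mice on the CPM scale, and 4 and 2 were lower after TMM scaling. In whole tissue, fewer cells of a type and less RNA per cell cannot be told apart, and the part of these cells in the members' changes was not tested.

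The comparison of TAC 29P with TAC Veh addressed the drug under pressure overload. The run of libraries with 5 of the TAC 29P libraries held 1 TAC Veh library, S2. The run of S18 held 0 TAC Veh libraries, so run and drug are partly confounded here. The TAC Veh library that the paper left out for clustering with Sham mice is missing from this comparison too. No member was called by limma on either scale and 0 reached an unadjusted p of 0.05, where all genes gave 0 adjusted calls and 0.95% higher and 1.11% lower at the unadjusted level. The ranges of both groups overlapped in all 75 members, while 1.83% of all genes did not overlap. For Hspb6 the difference was −0.21 (95% interval −0.53 to 0.11), for Hspb7 −0.13 (−0.50 to 0.24) and for Hspb8 −0.17 (−0.44 to 0.10). In 70 of 75 members the interval stayed within a 2-fold change in either direction. The exceptions were Hspa1a (−2.76 to 1.54), Hspa1b (−2.53 to 1.71), Dnajb1, Hsf4 and Hsph1.

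In Sham mice 29P likewise gave 0 calls (all genes 0), and 2 members were lower at an unadjusted p of 0.05, against 5.15% of all genes lower and 1.57% higher. These were Hspb3 (−0.45, adjusted p = 0.71) and Bag1 (−0.24, adjusted p = 0.72). The groups did not overlap in 1 member, Dnajc8, against 2.14% of all genes. For 66 of 75 members the interval stayed within 2-fold. The interaction of surgery and 29P, which asks whether TAC acted differently with the drug, had 0 calls and 0 at an unadjusted p of 0.05. The same held for all genes at the adjusted level, where 1.92% were higher and 0.937% lower unadjusted. After TMM scaling 1 member, Hspb3, passed the unadjusted level (0.54, adjusted p = 0.99), against 2.31% of all genes higher.

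**Figure D4:**
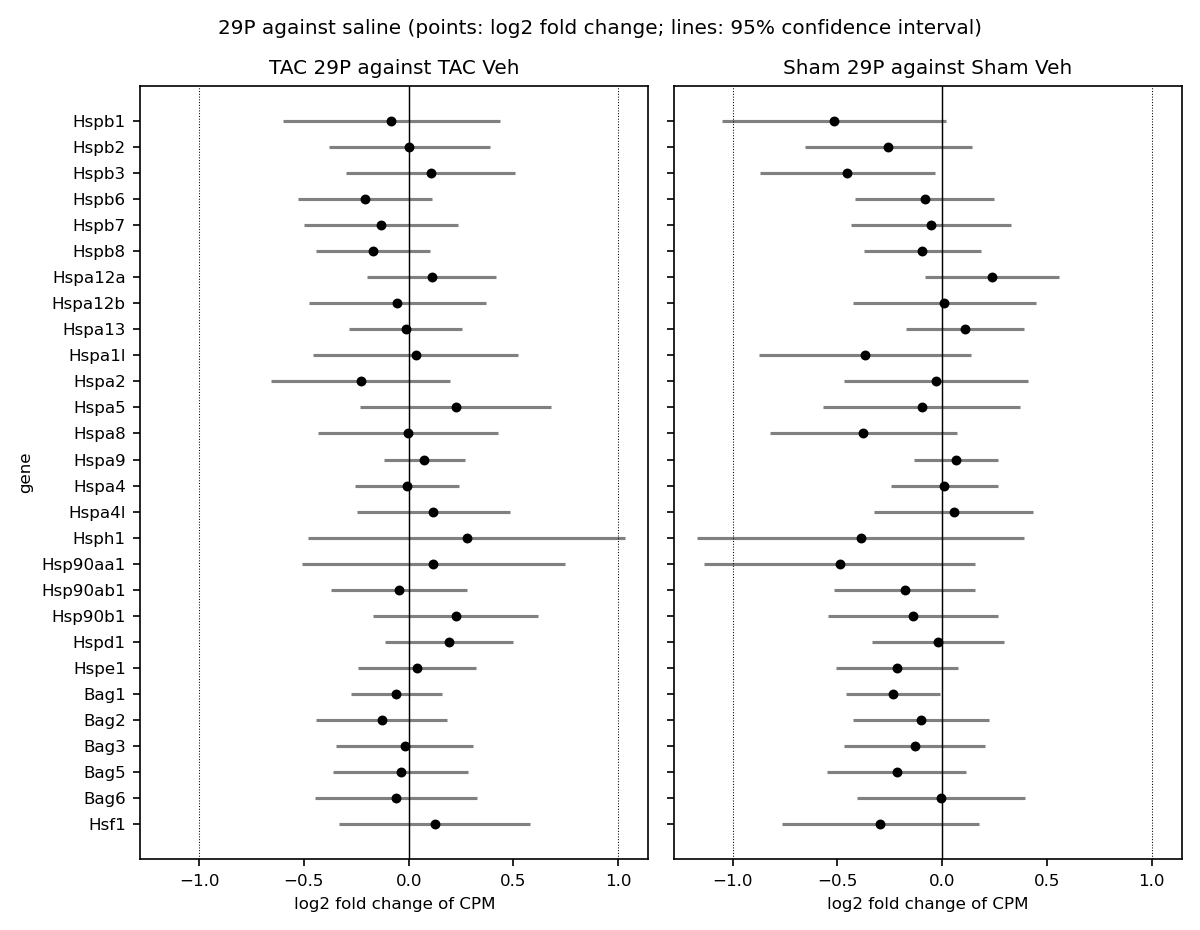
Difference between 29P and saline for 28 HSP, HSF and BAG genes within TAC (left) and within Sham (right), as log2 fold change of CPM (points) with its 95% interval (lines) and dotted lines at a 2-fold change. Every interval within TAC crosses 0, and the interval of Hsph1 reaches beyond 2-fold.

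The 2 widest intervals, those of Hspa1a and Hspa1b, belonged to genes with 1 very high library, S18. In all 7 members, chosen after their values were seen, were at least 2-fold higher in S18 than the median of the other 5 TAC 29P libraries. Hspa1a, the main stress-induced HSP70 (chr17:34969190-34972156), was measured at 3.22, 1.53, 28.0, 9.97 and 8.26 CPM in Sham Veh, at 2.70, 2.88 and 2.51 in Sham 29P, and at 7.78, 8.56 and 28.7 in TAC Veh. In TAC 29P it stood at 176 CPM in S18 and at 3.09 to 10.98 in the other 5 libraries, 51.4-fold above their median. After S18, the highest values were in S16 (TAC Veh) and S13 (Sham Veh), so high Hspa1a occurred with either surgery. Its near copy Hspa1b (chr17:34956436-34959238), 1918 of 1929 aligned coding bases of which are the same, read 183 CPM in S18 and 3.10 to 12.3 in the others (52.6-fold). With 99.4% identity, reads may be shared between both genes, and the printed promoters are nearly the same as well.

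The other 5 genes were co-chaperones or partners of HSP70 and HSP90. Dnaja1, a farnesylated HSP40, was at 179 CPM in S18 and 34.5 to 46.8 in the other TAC 29P libraries (4.58-fold over their median). Hsph1 (HSP110), the nucleotide exchange factor of HSP70, was at 253 against 51.7 to 63.3 (4.44-fold). Dnajb1, the HSP40 that is induced with Hspa1a, was at 61.0 against 12.96 to 17.2 (3.89-fold), Dnajb4, an HSP40 of heart, at 363 against 111 to 139 (2.96-fold), and Hsp90aa1 at 525 against 147 to 240.2 (2.62-fold). These 7 were 9.33% of the tested members, while 4.43% of all genes were at least 2-fold higher in S18. It was the highest of all 17 libraries in 28 members (37.3%), against 14.2% of genes, and was at least 2-fold lower in 0 members (2.75% of genes). By Dixon's criterion it was set apart from the other TAC 29P libraries as the highest in 16 members (21.3%), against 5.53% of genes. By family, the median ratio of S18 to the other TAC 29P libraries was 1.85 for HSP110, 1.63 for HSP90 and 1.39 for DNAJB. It was 1.30 for DNAJA, 1.20 for HSP70 and 1.12 for BAG, but 0.99 for DNAJC and 0.96 for small HSPs. The chaperonin genes Hspd1 and Hspe1 were at 1.62 and 1.29, and Hspd1 had its highest value of all libraries in S18. Hspb6, Hspb7 and Hspb8 had their lowest TAC 29P values in S18.

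S18 also differed from the other TAC 29P libraries in the atrial markers given above. S19 and S20 held more atrial RNA, with Hspa1a at 9.97 and 8.26 CPM. S18 had an immediate-early sum of 751 CPM (368 to 737 in the other TAC 29P libraries) and smooth muscle markers of 353 CPM (129 to 211). Its endothelial sum was 680 CPM (836 to 1020) and its adipocyte markers 5.16 CPM (at most 0.194). Other groups reached similar or more extreme values, with 1033 CPM of immediate-early genes in TAC Veh. Sham Veh reached 348 CPM of smooth muscle and 7.09 CPM of adipocyte markers, and Sham 29P went down to an endothelial sum of 377 CPM. Hspa1a was at most 28.7 CPM outside S18. The part of these marker sets in the levels of S18 was not tested. None of the 7 genes was called in TAC 29P against Sham 29P with or without S18. Without it, the log2 fold change in 29P mice went from 1.56 to 0.68 for Hspa1a, from 0.41 to 0.05 for Hsph1, from 0.28 to −0.05 for Dnajb1 and from 0.58 to 0.34 for Hsp90aa1. Hspb6 gave 0.99 without S18 and Hspb7 0.93, both still called.

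**Figure D5:**
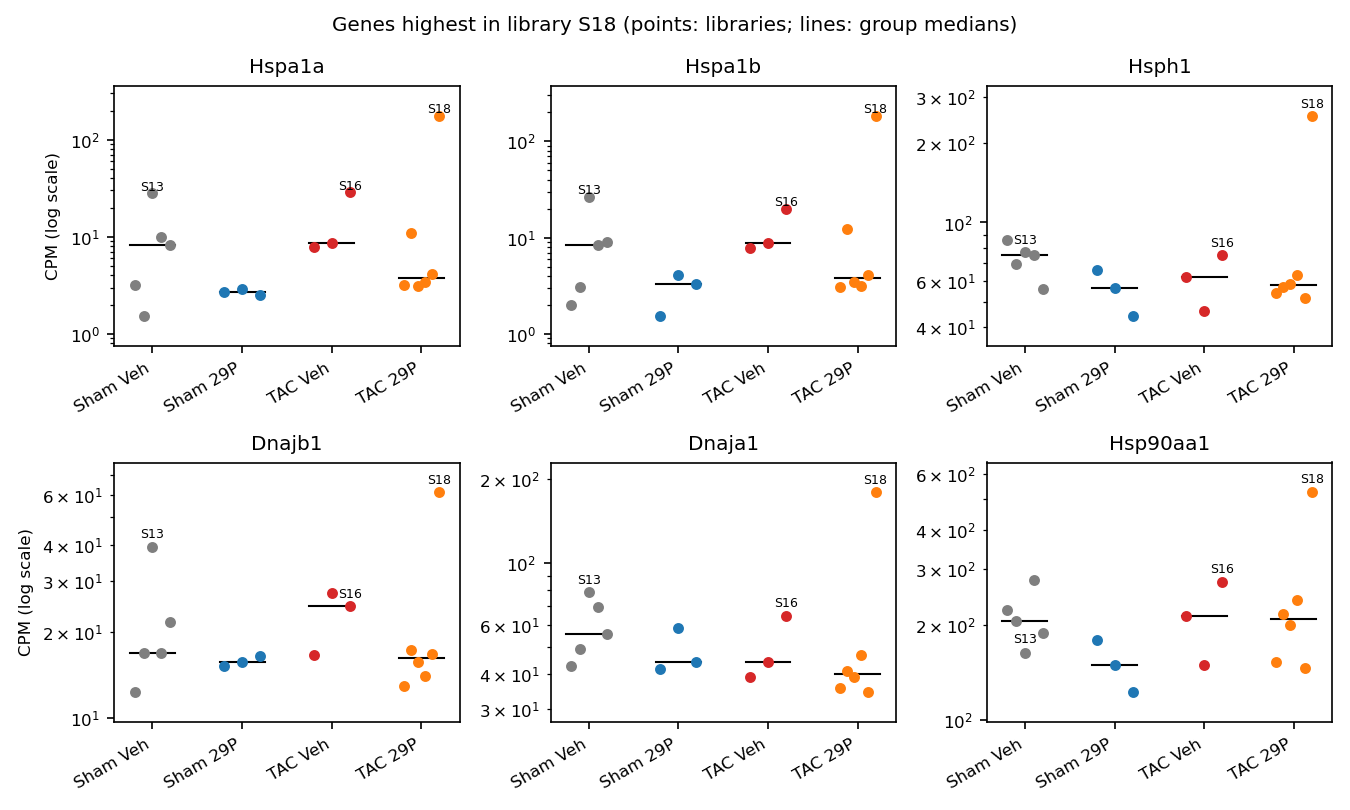
CPM on a log axis of 6 of the 7 genes at least 2-fold higher in S18, in each library (points) by group, with lines at the group medians. S18 of the TAC 29P group is the top point in every panel, and for Hspa1a it lies at 176 CPM with the other 5 libraries between 3.09 and 10.98.

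Of 40 other genes of the chaperone pathways (chaperonin subunits, HSP90 co-chaperones, crystallins and exchange factors), 39 were tested. In Veh mice 3 (7.69%, against 23.6% of all genes) rose on the CPM scale, namely Cryab, αB-crystallin, the small HSP that lies beside Hspb2 (0.47, limma adjusted p = 0.025), Gak, an auxilin with a J domain (0.58), and the ubiquitin ligase Ube4b (0.36). After TMM scaling none of these was called. Of the 39, 2 were then lower (against 5.95% of all genes), Fkbp4, an HSP90 co-chaperone (−0.66), and Unc45b, the myosin chaperone (−0.49). In 29P mice 9 (23.1%, against 31.5% of all genes) rose on the CPM scale and 1 of 39 after TMM scaling (against 6.07% of all genes). This was Serpinh1 (HSP47), the collagen chaperone (1.14, limma adjusted p = 0.0070, and 0.030 after TMM scaling). S18 was the highest of the 17 libraries in 18 of the 39, against 14.2% of all genes.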

How the data were processed

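Total RNA of the left ventricular apex was sequenced as mRNA libraries from 17 mice (5 Sham Veh, 3 Sham 29P, 3 TAC Veh, 6 TAC 29P), grouped by their GEO labels. Reads had been mapped by the authors in Partek Flow (STAR 2.3.7, mm10), and the deposited values are CPM per gene with 0.0001 added. The counting tool and its strand setting are not given in the sources used here, and reads of overlapping genes (37 tested members overlap another annotated gene) and near copies may be shared. Libraries that the authors removed, and their DESeq2 results, were not used here. The paper states that some libraries were removed for few reads and a TAC Veh library for clustering with Sham mice. Removal on that ground can widen differences of TAC Veh from Sham Veh and narrow the spread of TAC Veh. The members and lists were chosen with earlier results of these data known.

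Depth was estimated from the smallest step between low CPM values (14.2 to 23.8 M reads). Of the low values only 79.1 to 82.3% came out as whole reads, so no count test was run. Genes with a CPM of 0.5 in at least 3 libraries were tested on log2(CPM + 0.1) with limma 3.58.1 (R 4.3.3; lmFit, contrasts.fit, eBayes with a trend) in 1 model of the 4 group means (13 residual degrees of freedom). Adding 0.1 understates the change of low genes. A gene was called at a two-sided Benjamini-Hochberg adjusted p of 0.05 over all tested genes, and p-values measure the spread between these mice. On simulated data of the same group sizes, 53.5% of genes changed 2-fold, 12.5% of genes changed 1.41-fold and 0.0295% of unchanged genes were called for TAC Veh against Sham Veh (15989 genes). The simulation drew independent noise for each gene and changed 200 genes. It held no shift common to many genes, unlike the data with their median log2 fold change of 0.33. These rates therefore do not carry over to calls that depend on the scaling.

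Named were all tested HSP, HSF and BAG members that were called or had a mean CPM of 20 or more, up to 8 called DNAJ members each way in each TAC comparison, and members at an unadjusted p of 0.05 for 29P. Others are marked as named after their values were seen. 1 member counted among the 75 tested is not reported singly here, in text or figures. The alternatives were TMM factors (30% and 5% trimmed), median-of-ratios factors, totals without mitochondrially encoded genes, and other filters and constants. Further alternatives were only the groups compared, a covariate for the runs of libraries listed above, and leaving out each library. Promoters came from the RefSeq table of GRCm38.p6, which had 66 of the 83 members. Coordinates are those of GENCODE vM21. Python 3.11.15 with numpy 2.4.6, pandas 2.3.3 and matplotlib 3.10.9 was used for tables and figures.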

Additional observations from a re-analysis of the deposited data

Results flagged for a closer look

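The highest and the lowest library of a group were compared with the others by Dixon's criterion for 46 members in Sham Veh and TAC 29P, 92 tests in all, while the groups of 3 were too small. For independent normal values about 5% of such groups would be set apart by chance, and 21 values were. The 92 tests share the same libraries, so that rate is not a fair baseline for the 21. The share of all genes with any library set apart is not given here. In TAC 29P, 13 of them were the highest value in S18. These were, in CPM with the range of the other 5 libraries, Hspa1a at 176 (3.09 to 10.98), Hspa1b at 183 (3.10 to 12.3), Hsph1 at 253 (51.7 to 63.3), Dnaja1 at 179 (34.5 to 46.8), Dnajb1 at 61.0 (12.96 to 17.2), Dnajb4 at 363 (111 to 139) and Hsp90aa1 at 525 (147 to 240.2). The same library was highest for Hsp90ab1 at 1948 (1160 to 1282), Hspa8 at 1457 (726 to 817), Hspa5 at 869 (384 to 509), Bag3 at 274 (157 to 196), Hspa4l at 116 (59.2 to 72.7) and Hspa1l at 31.3 (12.8 to 19.1). S18 was set apart as the highest in 5.53% of all genes.

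Also in TAC 29P, Bag6 was highest in S11 at 129 CPM (88.3 to 103 in the others) and Hspa12a lowest in S3 at 29.2 CPM (37.2 to 40.4). In Sham Veh, S13 was highest for Hspa1b at 26.6 CPM (1.997 to 9.06) and Hspa2 at 10.9 CPM (5.09 to 6.48) and lowest for Hspd1 at 261 CPM (292 to 301) and Dnajb11 at 38.4 CPM (43.3 to 45.2). S6 of the same group was lowest for Hsp90ab1 at 888 CPM (1168 to 1238) and Hspa8 at 627 CPM (840 to 875).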

How the results depend on the processing

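Scaling, the run covariate and single libraries each moved counts of called members, and the calls over all genes moved as well. With TMM factors the share of all genes called higher went from 23.6% to 4.26% in Veh and from 31.5% to 6.07% in 29P mice. The share called lower went from 1.98% to 5.95% and from 1.15% to 5.15%. With the run covariate 20.5% and 5.06% of all genes were higher. Shares for the other settings are not given here. For TAC Veh against Sham Veh the 18 higher members became 2 with TMM or median-of-ratios factors, 7 with totals without mitochondrially encoded genes, 11 with only the groups compared, 10 without the libraries with atrial transcripts, 2 with TMM factors and without S18, and 3 with TMM factors and without the atrial libraries. The 1 lower member became 8 with TMM or median-of-ratios factors, 3 without mitochondrially encoded genes, 2 with a CPM of 1 in all libraries or a constant of 1, 0 with the run covariate or without the atrial libraries, 10 with TMM factors and without S18, 5 with TMM factors and without the atrial libraries, and 4 at unadjusted p. For TAC 29P against Sham 29P the 20 higher members became 4 with TMM or median-of-ratios factors, 8 without mitochondrially encoded genes, 2 with the run covariate, and 3 with TMM factors and without S18 or the atrial libraries. The 0 lower members became 5 with TMM factors, 4 with median-of-ratios factors, 6 with TMM factors and without S18, and 7 with TMM factors and without the atrial libraries. In Sham mice the 0 members lower with 29P became 2 at unadjusted p. TMM factors with S18 or the atrial libraries left out were added after seeing the data. The cause of these differences was not tested.

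With each library left out in turn, higher members ranged from 2 (without S2) to 17 in Veh mice, with 11 without S6, and from 7 (without S14) to 26 in 29P mice, and lower members from 0 to 3 and from 0 to 0. The share of all genes called higher was 2.87% without S2 in Veh mice and 6.25% without S14 in 29P mice. Every 29P comparison and the interaction gave 0 to 0 members called.

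Directions turned for 4 small changes called on the CPM scale. With TMM factors the value was −0.0079 for Dnajb6 in Veh mice (−0.0079 also without S18), −0.0207 for Dnajc1 and −0.0256 for Dnajc8 in 29P mice. With median-of-ratios factors the last 2 were −0.0247 and −0.0296. With TMM factors and without S18, Dnajc1 was −0.0405 and Dnajb11 −0.0294 in 29P mice, and without the atrial libraries −0.0418 and −0.0307.

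No paired analysis was possible because each library came from a different mouse and the labels name no pairs of mice between groups. Groups of 3 mice limit precision, and members of low CPM rest on few reads.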
